A study of Homo sapiens with 43 samples.

Results

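The 6 derivatives of the lung cancer cell line H2087, here called LCC1 to LCC6, were compared with the parental line in a medium low in mitogens (MLM). LCC stands for latency-competent cancer cells, and the labels describe each derivative as isolated from an organ that was BLI-negative. The 8 libraries were chosen by name from the MLM table of H2087 and are 8 of the 30 RNA libraries of the series that have values. The members are the 12480 genes with a mean of at least 10 normalized counts over these 8 libraries, of 18085 genes in the table, and the other 5605 fell below that mean.

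The series compares H2087 and HCC1954 cancer cells with their latency-competent derivatives by RNA sequencing and by chromatin immunoprecipitation. Each of the 6 LCC groups is 1 derivative, cultured in vitro for 48 h below confluence in MLM, with 1 library per derivative. The parental group is the established H2087 lung cancer cell line, treated alike, with 2 libraries (another in the labels was not analysed here). LCC and parental libraries from mitogen-rich medium (MRM, 6 and 2 libraries, 48 h) are set beside them where stated. The labels name no genotype or drug, and do not say whether a derivative is 1 clone, which organ it came from, or whether replicate libraries came from separate cultures.

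Mitogens are growth factors that push cells through the division cycle, and their withdrawal slows proliferation in most cells. Latent or dormant cancer cells survive in an organ without forming a growing tumour, and slow division and reduced visibility to immune cells are properties often described for them. The genes below are taken up by role: secreted signals and their receptors, intracellular pathways, matrix and adhesion, cell division, and recognition by lymphocytes.

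The LCC libraries held 44.6 to 54.0 M reads and the parental libraries 50.5 and 55.7 M. Markers of epithelium and lung adenocarcinoma were detected in all 8 libraries, with 10 of 10 markers tested and 0 called. Their summed normalized counts ran from 153948 to 357099 in the LCC libraries and from 143379 to 150517 in the parental ones. The erythroid markers summed to at most 2.05 in any LCC library and to at most 2.15 in any parental one, and no marker of fibroblasts, leukocytes, endothelium, kidney tubule, neurons or glia was called. The summed leukocyte markers were lower in every LCC library (2628 to 5265, against 5839 to 6017 in the parental ones) and the kidney tubule markers higher (105 to 158, against 93.5 to 98.0), and their part in the results was not tested. Most of the leukocyte sum was CD68, with 2470 to 5194 in the LCC libraries and 5774 and 5948 in the parental ones. PTPRC was at most 2.41 in any library, and CSF1R had 33.2 to 152 in the LCC libraries and 37.7 and 36.1 in the parental ones. The sums overlapped for fibroblasts (276 to 697 in LCC and 323 to 372 in parental libraries), endothelium (311 to 959.9 and 419.7 to 456) and neurons and glia (1579 to 2065 and 1929 to 2002). The parental libraries were almost alike: 0.136% of genes differed by over 2-fold between them, against 5.03 to 11.3% between any pair of derivatives. Between a derivative and a parental library the share was 7.94 to 11.8%, which overlaps the range between derivatives.

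In some stretches of chromosomes the parental MLM libraries stood apart from every other H2087 library, and this touches the results below. Of the 36 neighbouring tested genes from MAK16 to RNF170 on chromosome 8, 25 were called lower and 1 higher, and the median log2 difference was -0.98 to -0.80 in each of the 6 LCC libraries. The same 36 genes had a median of 0.06 in the LCC over the parental libraries in MRM, while parental MRM libraries stood at a median of -0.92 relative to parental MLM libraries. Runs of at least 8 genes whose neighbours had a median beyond 0.4 numbered 10 lower and 2 higher. That cut was chosen after the data were seen. The lower runs held 169 genes (88 called lower, 2 higher) and the higher runs 37 (9 called higher). Other lower runs were RPH3AL to YWHAE on chromosome 17 (median -0.55, with FAM101B), TATDN2 to HDAC11 on chromosome 3 (-0.53) and TSNARE1 to TOP1MT on chromosome 8 (-0.64, with ARC). Over whole chromosomes, the parental MRM libraries differed from the parental MLM libraries by a mean of 0.17 on chromosome 3, -0.16 on chromosomes 8 and 10, -0.20 on chromosome 7 and -0.25 on chromosome 15 (median log2). Chromosome 3 had median log2 differences of 0.12 to 0.23 in the LCC libraries in MLM and -0.08 to 0.01 in MRM, and chromosome 8 had -0.20 to -0.11 and -0.06 to 0.06. On chromosomes 7 and 10 the LCC libraries in MLM lay at -0.17 to -0.05 and -0.14 to -0.08, on the side of the parental MRM libraries as on chromosomes 3 and 8. Chromosome 15 went the other way in LCC1 to LCC5 (0.16 to 0.25 in MLM) and not in LCC6 (-0.25), and lay at 0.28 to 0.46 in all 6 LCC libraries over the parental ones in MRM. Among derivatives, chromosome 11 was low in LCC3, LCC5 and LCC6 in both media, and chromosome 14 was high in LCC2 in both media. Medium and any other difference between the parental MLM and MRM libraries cannot be told apart, and the part of these shifts in the calls was not tested beyond the values centred on neighbouring genes below.

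**Figure D1:**
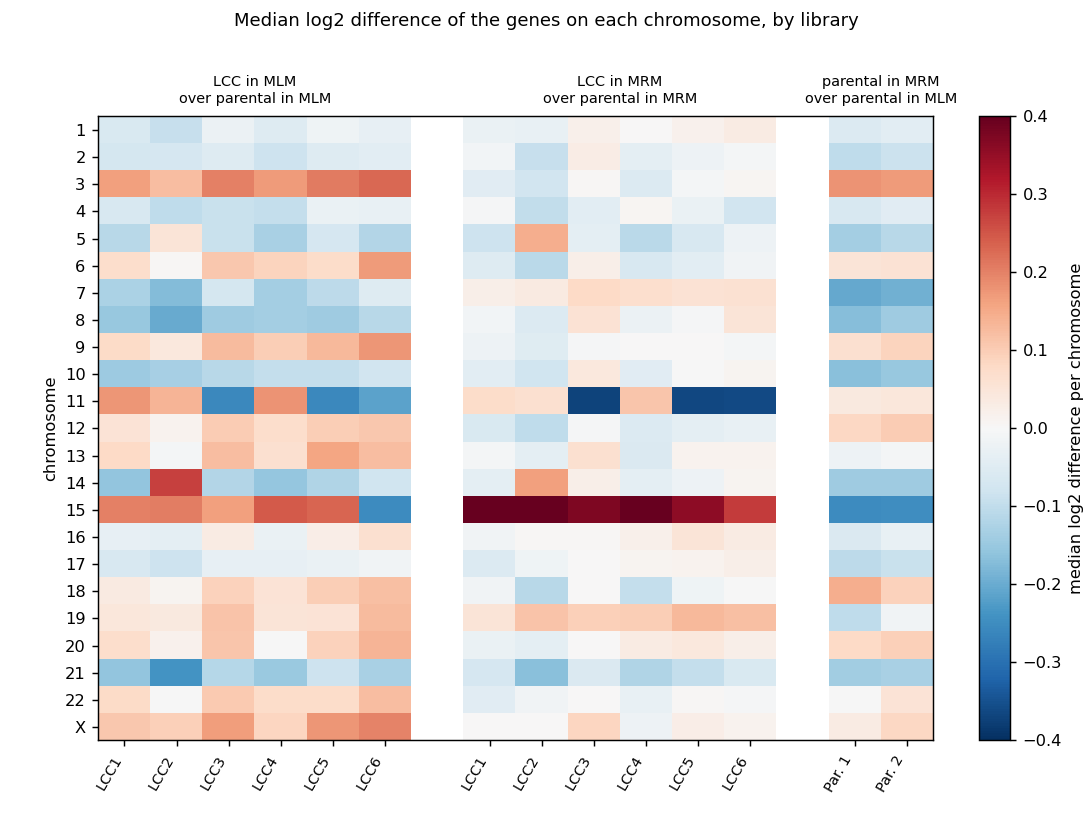
Median log2 difference (colour) of genes with a mean of at least 100 normalized counts, by chromosome (rows) and library (columns). The left block sets each LCC library in MLM over the mean of both parental MLM libraries, the middle block does so in MRM, and the right block sets each parental MRM library over the parental MLM mean. Chromosome 3 is raised (0.12 to 0.23) in all 6 LCC libraries of the left block and in the right block, but not in the middle one. Chromosome 15 is raised in the middle block (0.28 to 0.46) and lowered in the right one (-0.25). Colours end at -0.4 and 0.4, which chromosome 15 exceeds in MRM.

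In MLM, 616 genes rose and 1095 fell in LCC cells relative to parental cells, 13.7% of those tested (4.94% higher, 8.77% lower; limma, two-sided, Benjamini-Hochberg adjusted p under 0.05). The changes were unequal in size. Of the genes that fell, 345 did so by over 2-fold, 200 by over 4-fold and 76 by over 16-fold, and of those that rose 48, 4 and 0 did. For every called gene, all 6 LCC libraries lay on 1 side of both parental libraries, as they did for 36.4% of all tested genes. In bulk RNA, fewer cells of a type and less RNA per cell cannot be told apart. With libraries scaled to equal totals, which moved the median gene by -0.06, 465 genes rose and 1579 fell. Without parental library 1 the counts were 9 and 142, and without parental library 2 they were 4 and 123, with the lone parental library then assumed to vary like the derivatives. No log2 difference of a called gene named below moved by more than 0.17 when either was left out. Because the 2 parental libraries were almost alike, small shifts followed from that alone. They do not show how other parental cultures would differ.

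The genes that fell furthest among well-measured genes (mean of at least 100) stood at 346 or more normalized counts in both parental libraries and at 0 to 419 in the derivatives. Values are deposited normalized counts, given for the 6 LCC libraries as lowest, median and highest. QPRT, which makes a precursor of NAD from the tryptophan breakdown product quinolinate, had 0, 0.595 and 11.5 in the LCC libraries, against 484 and 534 in the parental ones. ELOVL2, an enzyme that lengthens polyunsaturated fatty acids, had 0, 3.84 and 13.3 in the LCC libraries and 682 and 698 in the parental ones. PPP2R2C, a regulatory subunit of the phosphatase PP2A, had 2.28, 3.64 and 14.5 in the derivatives and 844 and 859 in parental cells. All 3 genes were low in every derivative, with no overlap between the groups, as the rule that chose them required. Their log2 differences (LCC minus parental, ± SE) were -8.00 ± 0.95, -7.33 ± 0.91 and -7.31 ± 0.54, with limma adjusted p = 0.00206, 0.00235 and 0.000328.

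Secreted signals were among the same 15 genes. SEMA3C, a guidance cue of the semaphorin family, had 1.23, 36.9 and 143 in the LCC libraries, against 2682 and 2701 in the parental ones (-6.39 ± 1.37). BMP6, a bone morphogenetic protein, had 4.17, 9.74 and 13.5 in the LCC libraries and 413 and 449.6 in the parental ones (-5.38 ± 0.40, adjusted p = 0.000328 in limma). CCL2, a chemokine that draws monocytes, had 0, 17.6 and 39.4 in the derivatives and 415 and 451 in parental cells (-5.52 ± 1.49). SEMA3C and CCL2 were low in all 6 derivatives but spread widely among them, SEMA3C being lowest in LCC6 at 1.23 and CCL2 lowest in LCC3 at 0. HES7, a Notch target that represses transcription, had 6.41, 18.7 and 69.2 in the derivatives and 666 and 694 in parental cells (-4.94 ± 0.72). The other 8 of the 15 had log2 differences of -5.30 to -3.85: PDE3B, which breaks down cyclic nucleotides, the ubiquitin ligase MARCH4, N4BP3, NAT8L, which makes N-acetylaspartate, FAM101B, the phospholipase PLCE1, ARC, an early response gene of neurons, and C15orf48. The calls of PPP2R2C, BMP6, N4BP3, NAT8L, FAM101B, ARC and C15orf48 held without either parental library, that of QPRT also held without parental library 1. Of the 15, only CCL2 lost its call when 1 derivative was left out: CCL2 without LCC5 or LCC6 (-5.10 and -5.42).

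Most of these genes were high in the parental MLM libraries alone. Of the 200 genes that fell by over 4-fold, 108 had a mean in parental MRM libraries under 0.25 times that in parental MLM libraries, and 34 were called lower in MRM too. Among the 15 named above, 12 were of the first kind. QPRT had 9.49 and 2.36 in the parental MRM libraries and 4.40 to 18.8 in the LCC MRM libraries, ELOVL2 was at 0 in both parental MRM libraries, and SEMA3C had 15.8 and 16.5 there. For these genes the group that stood out was the parental cells in MLM. The same held for other genes of the lists below, such as WNT5B, FGF13, BMP7, BCL2A1, GSTM3 and the imprinted gene NDN. CCL2 was the opposite case, with 3.10 to 156 in LCC MRM libraries and 1268 and 1179 in parental MRM libraries. CCL2, PDE3B, HES7 and N4BP3 were called lower in both media. Of 12281 genes tested in both media, 707 were called lower in MRM.

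**Figure D2:**
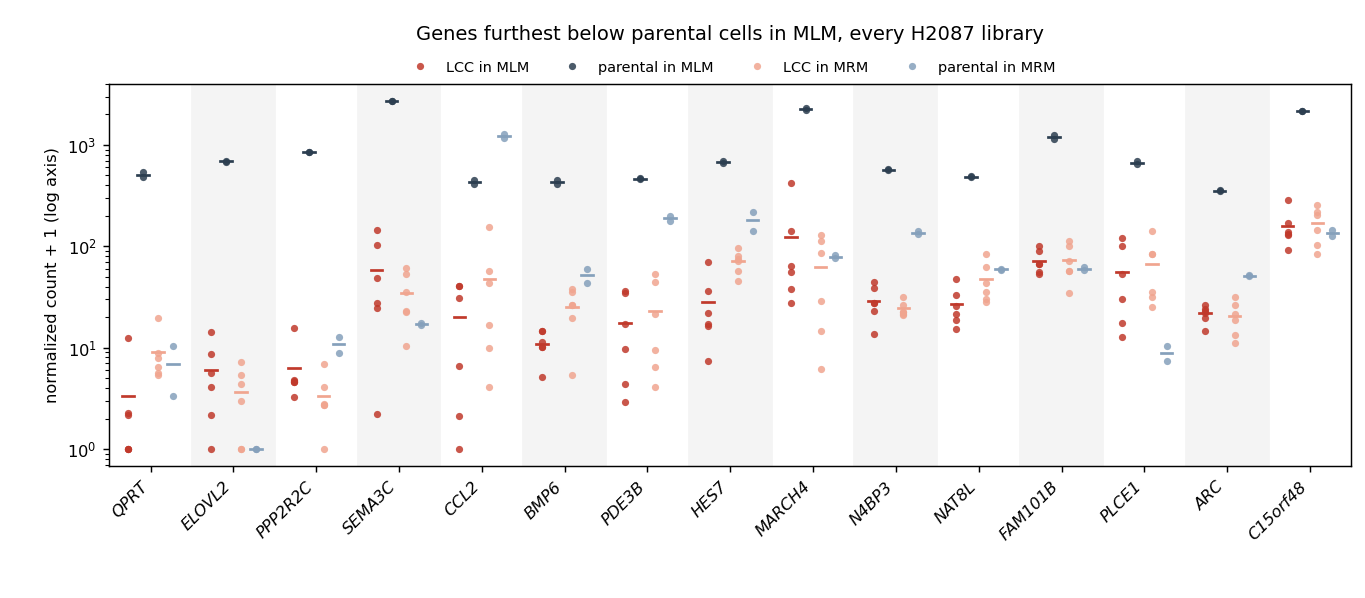
Normalized count plus 1 (log axis) in every H2087 library for the 15 genes furthest below parental cells in MLM; points are libraries, bars group means (6 LCC and 2 parental libraries per medium). In all but CCL2, PDE3B and HES7, the dark parental MLM points stand over 4 times above the pale parental MRM points.

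Genes that rose did so by smaller steps. KRT75, a keratin of the hair follicle, had 271, 706 and 1638 in the LCC libraries, against 78.1 and 81.1 in the parental ones (3.15 ± 0.61, adjusted p = 0.0138, limma). CX3CL1, a chemokine anchored in the membrane that binds T cells and natural killer cells, had 369, 720.1 and 1038 in the derivatives and 118 and 128 in parental cells (2.35 ± 0.41, adjusted p = 0.00901, limma). FGF1, a fibroblast growth factor, had 87.1, 192 and 229 in the LCC libraries and 42.6 and 38.6 in the parental ones. Every derivative lay above both parental libraries for each of these genes, as the rule that chose them required. Collagens followed. COL8A1, a short-chain collagen, had 465, 707 and 1343 in the derivatives and 199.9 and 231 in parental cells, and COL6A1, a chain of collagen VI, had 4432, 9183 and 12087 in the derivatives and 3222 and 3151 in parental cells. PGF, a growth factor of the VEGF family, had 397, 471 and 636 in the LCC libraries, against 157 and 194 in the parental ones.

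The remaining 9 of the 15 rose by 1.39 to 2.11 on the log2 scale. They were the ectonucleotidases ENPP3 and ENTPD3, the semaphorin SEMA3F, the Hippo pathway protein AMOTL1, the DNA exonuclease TREX1, the glucose transporter SLC2A12, the muscle kinase SPEG, the growth factor FGF5 and the matrix protein MAMDC2. Of all 15, 9 were called higher in MRM as well: KRT75, CX3CL1, FGF1, COL8A1, ENTPD3, TREX1, PGF, COL6A1 and MAMDC2. Of 12281 genes tested in both media, 1086 were called higher in MRM. COL8A1, SEMA3F, ENTPD3 and TREX1 lie on chromosome 3. None of the 15 kept its call without parental library 1 or without parental library 2. The calls lost when 1 derivative was left out were ENPP3 without LCC1 or LCC5 (2.00 and 2.15), ENTPD3 without LCC1 (1.57), SPEG without LCC1, LCC3, LCC4, LCC5 or LCC6 (1.49, 1.35, 1.46, 1.30 and 1.36), COL6A1 without LCC1 (1.35) and MAMDC2 without LCC1 or LCC5 (1.34 and 1.32), and SPEG (1.31) was not called when each library was centred on the 20 neighbouring genes, as described below.

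**Figure D3:**
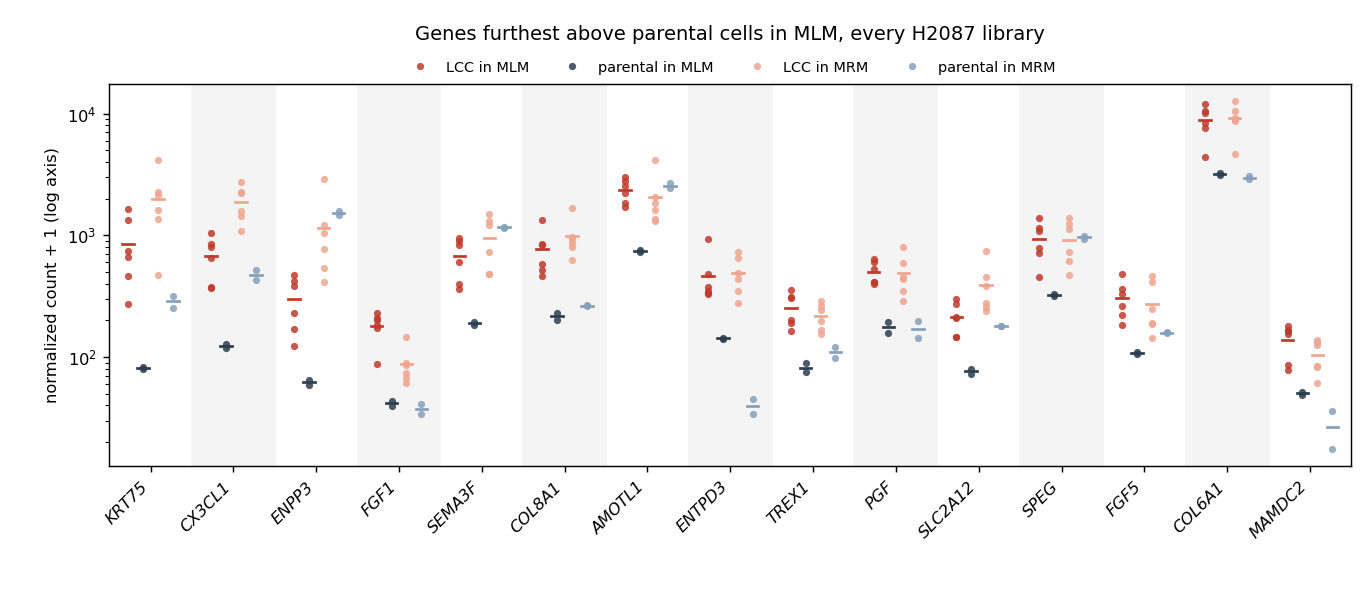
Normalized count plus 1 (log axis) in every H2087 library for the 15 genes furthest above parental cells in MLM; points are libraries and bars group means, with LCC left of parental cells in each medium. The LCC MLM points lie above both parental MLM points in all 15 genes, which was a condition of their choice. For ENPP3, SEMA3F and AMOTL1 the parental MRM points lie far above the parental MLM points.

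NF-kB is a family of transcription factors that carry inflammatory and survival signals. Inhibitor proteins hold the dimers in the cytoplasm until the kinases IKBKB and CHUK mark the inhibitors for breakdown. A second, slower route runs through MAP3K14, which TRAF3, BIRC2 and BIRC3 keep low, and ends in a dimer of RELB with processed NFKB2. Several members are themselves NF-kB targets, NFKBIA, NFKB2 and BIRC3 among them. Of 41 pathway genes tested, 1 rose and 14 fell (36.6%, against 13.7% of all tested genes), with a median log2 difference of -0.21 against 0.01 over all tested genes.

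To show what the members that fell have in their promoters, the 250 bases before the transcription start are given from RefSeq (GRCh38.p14). The motif searched was GGGNNTTTCC, a form of the NF-kB binding sequence, on both strands, and matches are in capitals. BIRC3 (chr11:102317234-102317483, plus strand), NFKBIA (chr14:35404750-35404999, minus strand) and NFKB2 (chr10:102395455-102395704, plus strand, 1 of its starts) are members that fell. TNFAIP3 (chr6:137867009-137867258, plus strand), an enzyme that switches the pathway off, is shown as a member that was not called.
BIRC3: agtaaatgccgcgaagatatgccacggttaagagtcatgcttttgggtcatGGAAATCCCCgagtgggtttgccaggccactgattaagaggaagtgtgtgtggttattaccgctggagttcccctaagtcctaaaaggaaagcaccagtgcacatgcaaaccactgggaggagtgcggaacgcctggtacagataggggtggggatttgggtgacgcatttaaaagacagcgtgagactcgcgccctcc
NFKBIA: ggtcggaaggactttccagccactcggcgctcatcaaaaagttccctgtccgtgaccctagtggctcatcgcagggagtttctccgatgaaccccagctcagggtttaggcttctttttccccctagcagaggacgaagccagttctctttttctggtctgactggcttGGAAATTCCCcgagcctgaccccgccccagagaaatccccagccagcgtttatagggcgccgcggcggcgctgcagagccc
NFKB2: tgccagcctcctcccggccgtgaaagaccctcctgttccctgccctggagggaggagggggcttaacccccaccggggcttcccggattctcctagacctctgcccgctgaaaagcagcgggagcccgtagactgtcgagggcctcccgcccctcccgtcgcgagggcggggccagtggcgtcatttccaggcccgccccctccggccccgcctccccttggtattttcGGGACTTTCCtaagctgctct
TNFAIP3: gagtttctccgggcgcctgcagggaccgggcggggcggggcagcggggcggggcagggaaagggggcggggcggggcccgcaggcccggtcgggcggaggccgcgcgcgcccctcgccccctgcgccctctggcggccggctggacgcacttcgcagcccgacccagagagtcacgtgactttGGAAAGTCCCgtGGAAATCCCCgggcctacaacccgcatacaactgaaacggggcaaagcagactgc
Such a match stood in 1.73% of the 35116 promoters of the table, and in at least 1 promoter of 2.12% of its 27305 genes. Of the 41 pathway genes tested, 36 entered the promoter count, and 11 of these held the motif: 5 of 11 genes that fell and 6 of 25 that did not. Of the 14 genes that fell, RELB, NFKBIE and IKBKB did not enter it, so the shares do not cover the whole pathway list. A match describes these letters only and was present in called and uncalled members alike.

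Among the NF-kB subunits, both members of the slower route fell. NFKB2 had 1258, 1569 and 1845 normalized counts in the LCC libraries, against 3638 and 3794 in the parental ones (-1.27 ± 0.14, adjusted p = 0.00146, limma). RELB had 269, 453 and 507 in the derivatives and 801 and 798 in parental cells. The subunits of the fast route were not called, NFKB1 at -0.21 ± 0.10 and RELA at -0.17 ± 0.14. Of 9 inhibitors, NFKBIA, NFKBIB, NFKBIE and TNIP2 fell and none rose. NFKBIA had 2586, 3509 and 4263 in the LCC libraries and 6354 and 6609 in the parental ones, and TNFAIP3 stood at 0.00 ± 0.34.

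The largest fall among targets was that of BIRC3, an inhibitor of apoptosis, with 928, 2096 and 2957 in the LCC libraries, against 17778 and 17501 in the parental ones (-3.32 ± 0.47, adjusted p = 0.00411, limma). In MRM it had 552 to 1260.1 in the LCC libraries and 1316 and 1189 in the parental ones, so that every LCC library and both parental MRM libraries lay far below the parental MLM libraries. TNFAIP2 was the single member to rise (0.68 ± 0.16), a call lost in 1 limma fit of all 4 H2087 groups (adjusted p = 0.0578), and SOD2 was not called (-0.35 ± 0.21). Of 21 receptors, adaptors and kinases, 7 fell and 0 rose. TNFRSF1B, a receptor for TNF, had 37.5, 63.3 and 161 in the derivatives and 581 and 605 in parental cells, and stood at -2.98 in MLM and -2.89 in MRM. MAP3K14, BIRC2, IRAK2, IKBKB, TRAF3 and CHUK fell by 0.41 to 0.90 on the log2 scale. Of 32 interleukins, colony stimulating factors and their receptors 0 rose and 3 fell (9.38%), among them IL6 (-2.12 ± 0.54) and the cytokine chain IL12A (-2.22 ± 0.34). Of 10 chemokines and chemokine receptors 2 rose and 1 fell (30.0%, against 13.7% of all tested genes), and CXCL1 was not called (0.35 ± 0.82). The survival factor BCL2A1 fell (-6.00 ± 0.67).

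IKBKB lies in the MAK16 to RNF170 stretch of chromosome 8 described above, where its 20 neighbours had a median of -0.86, so its fall was smaller than theirs. With each library centred on the 20 neighbouring genes, a setting chosen after the data were seen, 11 pathway genes fell and 1 rose. Over all 12440 genes so centred, 907 fell and 551 rose. In that setting IKBKB (0.33), CHUK (-0.23) and IRAK2 (-0.28) were not called, nor was IL6 (-1.89), and IKBKB changed sign. NFKB2 held its call without either parental library, the only 1 of the 41 to do so, as did BCL2A1. The calls lost when 1 derivative was left out were RELB without LCC1 or LCC5 (-1.05 and -0.91), NFKBIE without LCC1 (-0.65), IRAK2 without LCC5 (-0.63), TNFAIP2 without LCC3 or LCC5 (0.67 and 0.67) and IL6 without LCC1, LCC3, LCC4 or LCC5 (-1.99, -2.19, -2.06 and -2.02).

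Of 56 axon guidance genes 7 rose and 5 fell (21.4%). Of all tested genes 13.7% were called, 4.94% higher and 8.77% lower. Semaphorins are ligands that plexins and neuropilins bind, and they steer growing axons, vessels and migrating cells. Of 11 semaphorin receptors 5 rose and 0 fell, of 17 semaphorins 2 rose and 3 fell, of 7 ephrins 0 rose and 1 fell, and of 9 ephrin receptors none was called. NRP1, the co-receptor shared by class 3 semaphorins and VEGF, had 14689, 18321 and 22800.5 in the LCC libraries and 10292 and 10318 in the parental ones (0.80 ± 0.16, adjusted p = 0.0172, limma). PLXNB2 had 5792, 6882 and 7767 in the derivatives and 3734 and 3826 in parental cells, and PLXNA1, PLXNB1 and PLXNB3 rose by 0.75, 1.27 and 0.86. Of their ligands, SEMA3A rose (0.74 ± 0.10; 1.79 in MRM) with SEMA3F, while SEMA3C fell with SEMA3E (-0.58 ± 0.15; adjusted p = 0.362 in the limma fit of 4 groups) and SEMA4G (-0.85 ± 0.12). Centred on their neighbours, PLXNA1 (0.45), PLXNB1 (1.14) and SEMA3E (-0.41) were not called, and both of these plexin genes lie on chromosome 3. Leaving out a derivative ended calls for PLXNB1 without LCC1 or LCC5 (1.24 and 1.24) and SEMA3E without LCC1, LCC3 or LCC5 (-0.58, -0.54 and -0.60).

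In the Notch pathway, where a ligand on a neighbouring cell leads to cleavage of the receptor, whose inner part then acts in the nucleus, 2 of 31 genes rose and 7 fell (29.0%, against 13.7% of all genes). The ligands JAG2 (-1.68 ± 0.35) and DLL3 (-3.71 ± 0.80) fell. Of 8 genes taken here as targets, HES4, HES6, HES7 and HEY2 fell and HES1 rose. Whether each of them, HES6 included, responds to Notch in these cells was not tested. HES6 had 78.1, 102 and 117 in the LCC libraries, against 319 and 361 in the parental ones (-1.77 ± 0.17, adjusted p = 0.000819, limma). HES1, the best known target, went the other way with 558, 816 and 1049.5 in the derivatives and 435 and 419 in parental cells (0.89 ± 0.21). HES1 lies on chromosome 3, where its 20 neighbours had a median of 0.33. HES1 was not called when centred on its neighbours (0.56), and its call was lost when a derivative was left out: HES1 without LCC1 or LCC5 (0.87 and 0.89).

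WNT ligands act through frizzled receptors and beta-catenin, and KREMEN and NKD proteins restrain them. Of 43 WNT genes 6 rose and 5 fell (25.6%, against 13.7% of all genes). The ligand WNT5B had 0, 0 and 3.02 in the LCC libraries, against 112 and 107 in the parental MLM libraries, and was at 0 in all 8 MRM libraries. WNT10B had 30.8, 72.6 and 134 in the derivatives and 439.6 and 464 in parental cells, and fell by 2.74 in MLM, with a log2 difference of -2.17 in MRM. The inhibitors KREMEN2 (-2.22 ± 0.29) and NKD2 (-3.98 ± 0.59) and the co-repressor TLE2 (-2.88 ± 0.37) fell. CTNNB1, which encodes beta-catenin, rose to 10259.8, 13037 and 13645 in LCC cells, against 8335 and 8477 in parental cells (0.56 ± 0.12). GSK3B, RYK, FZD2, TLE1 and TLE3 rose by 0.31 to 0.78. The inhibitor DKK1 was not called in MLM (-0.81 ± 0.46), although it had 97.6 to 4001 in the LCC and 11.1 and 11.8 in the parental MRM libraries. Centred on their neighbours, CTNNB1 (0.33), GSK3B (0.14), RYK (0.094), FZD2 (0.79) and TLE3 (0.12) were not called, the first 3 of these being on chromosome 3. TLE3 was also not called in the limma fit of all 4 groups (adjusted p = 0.0549). Among WNT genes, leaving out a derivative ended calls for RYK without LCC5 (0.33), FZD2 without LCC1, LCC3, LCC4 or LCC5 (0.79, 0.78, 0.71 and 0.82) and TLE1 without LCC1 (0.67).

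In the TGF-beta and BMP pathway 3 of 54 genes rose and 4 fell, a share of 13.0%, close to that of all genes. BMP7 had 0.570, 1.51 and 7.85 in the LCC libraries and 263 and 295 in the parental MLM libraries, with 1.58 and 4.73 in the parental MRM libraries. The co-receptor TGFBR3 (-1.96 ± 0.34) and FSTL3, an activin-binding protein (-1.37 ± 0.22), fell. TGFBI, a matrix protein induced by TGF-beta, rose in both media (0.93 ± 0.22 in MLM, 0.84 in MRM). TGFB2 was not called in MLM (-0.78 ± 0.38), but was without LCC6 (-0.55). The call of TGFBI was lost without LCC5 (0.93).

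Growth factors and receptor kinases had 6 genes that rose and 10 that fell of 61 (26.2%, against 13.7% of all tested genes). FGF13, an intracellular member of the FGF family, had 0, 0.582 and 4.83 in the LCC libraries, against 353 and 396 in the parental MLM libraries. FGF2 had 1.19, 2.46 and 5.70 in the derivatives and 78.7 and 77.2 in parental cells, while FGF1, FGF5, PGF and VEGFA rose. The limma fit of all 4 groups did not call VEGFA (adjusted p = 0.0565) or FGFR2 (0.0522). Among the receptors, FGFR4 had 295, 359.6 and 454 in the LCC libraries and 1652 and 1717 in the parental ones (-2.24 ± 0.16, adjusted p = 0.000315, limma), and in MRM its difference was -1.51. FGFR1 had 100, 179 and 315 in the derivatives and 1001 and 1040.2 in parental cells (-2.43 ± 0.40). It lies in the MAK16 to RNF170 stretch of chromosome 8, where its 20 neighbours had a median of -0.88. Centred on its neighbours, FGFR1 was still called (-1.54). FGFR2 (-2.70 ± 0.72) and the lymphatic vessel receptor FLT4 (-3.06 ± 0.83) fell too, while AXL rose (0.85 ± 0.21) and EGFR was not called (-0.13 ± 0.11). When centred on their neighbours, FGFR2 (-2.53), FLT4 (-2.95) and AXL (0.75) were not called, and leaving out a derivative ended the calls of FGFR2 without LCC1, LCC3, LCC4 or LCC5 (-2.80, -2.79, -2.82 and -2.53), FLT4 without LCC3, LCC4 or LCC5 (-3.00, -3.20 and -2.94) and AXL without LCC3 or LCC5 (0.84 and 0.84). The calls of FGF13, FGF2 and FGFR4 held without either parental library.

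Of 23 collagens 3 rose and 2 fell (21.7%), and of 57 matrix glycoproteins and crosslinking enzymes 6 rose and 1 fell (12.3%, near the 13.7% of all genes). TNC, which encodes the glycoprotein tenascin C, had 18683, 21185 and 22460.1 in the LCC libraries, against 12018 and 12217 in the parental ones (0.78 ± 0.08, adjusted p = 0.00123, limma). The derivatives were close to each other and all lay above the parental libraries. SPARC, AGRN, TGFBI and CTGF rose with it, as did the crosslinking enzyme TGM2, with 23489, 29262 and 36582 in the derivatives and 15782 and 17015 in parental cells. COL6A2 (1.20 ± 0.25) rose with COL6A1. COL12A1 (-2.31 ± 0.51) and COL22A1 fell, COL22A1 holding 2 reads in all LCC libraries together and 179 in both parental ones (parental to LCC ratio 236, exact 95% interval 64.4 to 1965, for counting error only). The laminin chain LAMA2 fell (-2.42 ± 0.17), with 41.1, 46.5 and 52.4 in the LCC libraries and 264 and 240.4 in the parental ones. FN1, fibronectin, was not called: it ran from 63328 to 214054 in the derivatives, with 77878 and 75380.5 in parental cells. TNC and LAMA2 held without either parental library. Among matrix genes, the calls lost on leaving out a derivative were SPARC without LCC1, LCC2, LCC3, LCC5 or LCC6 (1.40, 1.40, 1.37, 1.25 and 1.30), AGRN without LCC5 (0.48), TGM2 without LCC1 (0.79) and COL6A1 without LCC1 (1.35), and TGM2 was not called when centred on its neighbours (0.65).

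Adhesion receptors and proteases are the cell's contacts with this matrix. Of 40 integrins and adhesion proteins of the immunoglobulin family 5 rose and 1 fell (15.0%, near the 13.7% of all genes). MCAM, an adhesion protein of melanoma and vessel cells, had 14890.4, 17566 and 21117 in the LCC libraries and 8378 and 8762 in the parental ones (1.02 ± 0.13, adjusted p = 0.00272, limma), and ITGA3, a laminin receptor, rose by 0.60 ± 0.12. The proteases had 4 genes that rose and 5 that fell of 36 (25.0%, against 13.7% of all genes). The inhibitor TIMP2 had 4609.8, 5667 and 6933 in the derivatives and 3034 and 3044 in parental cells. MMP17 rose (0.95 ± 0.20), MMP11 fell (-1.85 ± 0.22) and ADAM23 had 0, 2.64 and 35.9 in the LCC libraries, against 269 and 261 in the parental MLM libraries. PLAT, the tissue plasminogen activator, rose (0.74 ± 0.13; 1.81 in MRM) although its neighbours on chromosome 8 had a median of -0.86. ADAM9, a membrane protease near them, fell (-0.68 ± 0.07), and centred on its neighbours it changed sign (0.075).

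Epithelial character varied between derivatives and was not called as a difference from parental cells. CDH1, which encodes E-cadherin, had 433, 986, 19.9, 5682, 1701 and 80.0 in LCC1 to LCC6, against 807 and 763 in the parental libraries. LCC4 was thus the highest and LCC3 the lowest, with parental cells between them. EPCAM (-0.08 ± 0.44), VIM, which encodes vimentin (0.04 ± 0.19), and the lung factor NKX2-1, spelled NKX2.1 in the table (0.12 ± 0.23), were not called. Of 17 factors and genes of the epithelial to mesenchymal transition 0 were called, against 13.7% of all tested genes. Among tight junction genes CLDN4 rose (0.65 ± 0.13) and CLDN1 fell (-2.73 ± 0.59). SOX9, a factor of progenitor cells, had 2162, 3042 and 3419 in the derivatives and 1465 and 1496 in parental cells, with log2 differences of 0.96 in MLM and 1.15 in MRM, both called. SOX2 and SOX4 were not called in MLM (1.01 ± 0.69 and 0.33 ± 0.56), and SOX7 fell (-3.14 ± 0.62).

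Few genes of cell division were called. Of 54 cell cycle and replication genes 0 rose and 1, E2F2, fell (-0.88 ± 0.14), 1.85% against 13.7% of all genes. MKI67, a marker of dividing cells, had 13422, 15065 and 15794 in the LCC libraries and 13675 and 12759.6 in the parental ones and was not called (0.17 ± 0.07), although it was called higher without LCC2 (0.20) and when centred on its neighbours (0.41). Of 32 CDK inhibitors, retinoblastoma family genes and other restraint genes 5 rose and 0 fell, 15.6% against 13.7% of all genes. CDKN2B, an inhibitor of CDK4 and CDK6, had 417, 695 and 987 in the derivatives and 304 and 277 in parental cells. CDKN2D, RB1, RBL2 and CCNG2 rose by 0.33 to 0.92, and CDKN1A (-0.15 ± 0.38) and CDKN1B (0.30 ± 0.10; called higher without LCC6, at 0.35) were not called. MYC, a driver of growth, fell to 11384, 11827 and 14411 in LCC cells, against 16669 and 17476 in parental cells (-0.48 ± 0.09), a call lost in the limma fit of all 4 groups (adjusted p = 0.106). DUSP6, induced by ERK signalling, rose (0.89 ± 0.20) and its relative DUSP9 fell (-2.15 ± 0.37). Centred on their neighbours, CDKN2B (1.05) and RBL2 (0.22) were not called, and leaving out a derivative ended the calls of CDKN2B without LCC5 (1.17) and RB1 without LCC1, LCC3 or LCC5 (0.34, 0.32 and 0.31).

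Of 46 genes of recognition by lymphocytes 5 rose and 1 fell, 13.0%, against 13.7% of all genes. HLA class I molecules show peptides to T cells and hold natural killer cells back, and 0 of 7 were called, HLA.A (named as in the table) standing at 0.28 ± 0.10. Of 11 ligands of activating receptors of natural killer cells, PVRL2 and CD58 rose and none fell. PVRL2, a ligand of DNAM-1, had 1416, 2254 and 2439 in the LCC libraries and 949 and 971 in the parental ones (1.07 ± 0.20). ULBP1 (-0.71 ± 0.23) and MICA (0.07 ± 0.11), which bind NKG2D, were not called. CD276, an inhibitory ligand, rose (0.59 ± 0.11), and was not called when centred on its neighbours (0.37). Of 49 interferon response genes the receptor chain IFNAR2 fell (-1.01 ± 0.09) and none rose.

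Of 75 stress genes 5 rose and 5 fell (13.3%), and of 35 detoxification enzymes 1 rose and 5 fell (17.1%), both near the 13.7% of all genes. HMOX1, which breaks down heme and is induced by NRF2, had 608, 769.5 and 1163 in the LCC libraries, against 2513 and 2509 in the parental MLM libraries and 898 and 955 in the parental MRM libraries. The NRF2 targets GCLM (-0.50 ± 0.08) and SRXN1 (-0.49 ± 0.11) fell with it. Of 20 NRF2 targets tested, however, 3 fell, 1 rose and 16 were not called (20.0% called, against 13.7% of all genes). Their median log2 difference was 0.13, against 0.01 over all tested genes. The glutathione transferase GSTM3, which shares sequence with other members of its family, had 0.570, 3.59 and 9.66 in the derivatives and 285 and 304 in parental cells. ASNS, which makes asparagine, fell (-0.72 ± 0.10), a call lost in the limma fit of all 4 groups (adjusted p = 0.272). SLC7A2, a carrier of arginine and lysine, had 10.8, 33.6 and 223 in the LCC libraries and 519 and 511 in the parental ones, and differed by -3.73 in MLM and -3.58 in MRM. Its call was lost when most single derivatives were left out: SLC7A2 without LCC1, LCC3, LCC4, LCC5 or LCC6 (-3.89, -3.71, -3.47, -3.38 and -3.67). The transcription factor WT1 held 3 reads in all 6 LCC MLM libraries together and 312 in both parental ones, a parental to LCC ratio of 274 (exact 95% interval 93.0 to 1338, for counting error only). In MRM it held 0 and 235 reads, and was at least 265-fold lower in LCC cells against a floor of 3 reads over the group.

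Whether the effect of the derivative state differed between media was tested as an interaction. It did for 1370 of the 12480 genes, 11.0%, and for 556 of the 1711 called in MLM, 32.5%. The 1711 genes were called from the same MLM libraries that enter the interaction. A larger share among them was therefore built into their choice. With the library name as a replicate block, which pairs each derivative with itself, 3428 genes differed. Of the 616 genes that rose in MLM, 417 had the same direction in MRM and 124 were called there too, 20.1% of the MLM list and 11.4% of the MRM list. Of the 1095 that fell, 767 had the same direction and 156 were called, 14.2% of the MLM and 22.1% of the MRM list. Over all tested genes 59.2% had the same direction. Of 12281 genes tested in both media, 1086 were called higher and 707 lower in MRM. The 2 media share no libraries, but LCC MRM libraries come from the same derivatives. The MRM libraries were less deep, with 16.2 to 20.8 M reads per LCC library and 18.1 and 12.1 M in the parental ones. In MLM these were 44.6 to 54.0 M, and 50.5 and 55.7 M. The part of depth in the calls shared by the media, and in those that differ, was not tested.

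In the called genes whose effects differed most between media, parental values differed more between media than LCC values did. SPARC, a matrix protein, had 2035, 4252 and 6648 in the LCC and 1611 and 1594 in the parental MLM libraries. In MRM it had 2229 to 5315 in the LCC libraries and 6033 and 5762 in the parental ones (difference of effects 2.11 ± 0.52, adjusted p = 0.0178, limma). ENPP3 had 121, 306 and 468 in the LCC and 64.1 and 57.9 in the parental MLM libraries, and 412 to 2915 in the LCC and 1594 and 1472 in the parental MRM libraries. CCDC69 had 143, 213 and 277 in the LCC and 92.1 and 90.5 in the parental MLM libraries, and 104 to 181 in the LCC and 270.4 and 326 in the parental MRM libraries. For SPARC and CCDC69 the LCC values of both media overlapped and the parental values did not. The MLM call of CCDC69 was lost without LCC5 (1.12), and that of SPARC as given above (1.25 without LCC5). PLCE1 was called lower in MLM and higher in MRM, where its difference was 2.65. Genes with like effects in both media were KRT75 (3.15 in MLM and 2.54 in MRM), CX3CL1 (2.35 and 1.93), PGF (1.48 and 1.46), COL8A1 (1.73 and 1.82), CCL2 (-5.52 and -5.60) and TNFRSF1B (-2.98 and -2.89).

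**Figure D4:**
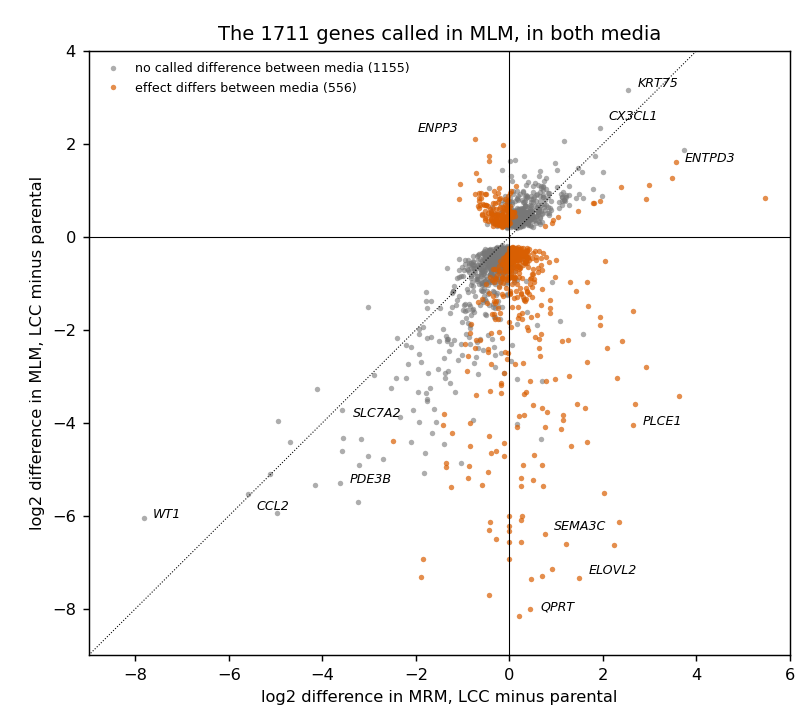
Log2 difference, LCC minus parental, in MRM (x axis) and MLM (y axis) for the 1711 genes called in MLM; orange marks the 556 whose effect differed between media, grey the other 1155, and the dotted line equal effects. Many of the genes furthest down on the y axis lie near 0 on the x axis, while WT1, CCL2 and SLC7A2 lie near the dotted line.

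The 6 derivatives differed among themselves as well as from parental cells. Of the called genes averaging 100 or more, the SD of log2 values between derivatives was largest for CCL2, followed by SEMA3C, SLC7A2, PDE3B, UCHL1 and MARCH4. UCHL1, a deubiquitinase of neurons, had 431, 174, 138, 319, 178 and 23.4 in LCC1 to LCC6, against 2057 and 2086 in the parental libraries, and so was lowest in LCC6. Its call was lost when centred on its neighbours (-3.38), and for UCHL1 without LCC3 or LCC5 (-3.69 and -3.77). At the other end, MFN2, which fuses mitochondria, had 4609, 4713 and 4902 in the LCC libraries and 5908 and 6024 in the parental ones, and 4409 to 5019 in the LCC and 6074 and 6081 in the parental MRM libraries. USP24, PCYT1A and ATG3 were as even, at -0.24, 0.38 and 0.25, but their neighbours had medians of -0.27, 0.38 and 0.26, and none was called when centred on them (USP24 (-0.025), PCYT1A (-0.014) and ATG3 (-0.032)).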

How the data were processed

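RNA of 6 H2087 LCC and 2 parental libraries in MLM, and of as many in MRM, was analysed; a further parental MLM library, the HCC1954 libraries and the chromatin immunoprecipitation samples did not enter the analysis (not used here). The deposited values are a signal, gene counts divided by a size factor per library, and the normalization by the authors spans both media. Per the submitters' processing notes, Bowtie2 2.2.4, HTSeq 0.6.1p1, DESeq2 1.8.1, hg19 and GRCh37 were named. Dividing by the step of each library returned whole reads for 100% of 289360 values (tolerance 0.01 reads), 44.6 to 54.0 M per LCC and 50.5 and 55.7 M per parental library in MLM. Strand is not given in the sources used here.

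Log2(value + 1) was fitted with limma 3.58.1 (trend, two-sided, R 4.3.3) over genes with a mean of at least 10, with Benjamini-Hochberg adjustment over all of them and a threshold of 0.05. Fold changes on this scale understate those of low genes. The interaction used all 16 libraries. LCC libraries of both media come from the same derivatives, per the labels, and are paired by name in the blocked fit. edgeR 4.0.16 and DESeq2 1.42.0 on the recovered reads, other pseudocounts (0.5 and 10), filters and scalings, and leaving out each library were alternatives. On simulated data the limma fit recovered 58% of 2-fold and 81% of 4-fold changes of 100 genes each among 12480, with 6 false calls. The simulation gave both groups the spread of the LCC libraries and drew each gene independently. The real parental libraries were almost alike and neighbouring genes shifted together, so these figures do not give the rate of false calls in the real data. P-values measure the spread between these libraries. In the LCC group this lies between derivatives with 1 library each, technical spread included. In the parental group it lies between 2 almost alike libraries and may be technical only. Neighbouring genes, chromosomes and promoters come from RefSeq tables, matched by symbol. Named genes are the 15 called genes per direction with the largest difference, at a mean of at least 100 and with no overlap between the groups. Called or preset members of each list, the 6 most and 6 least variable called genes, and 4 per direction by interaction were added. A subset is printed. Some genes are not reported here. Members and lists were chosen with earlier results of these data known.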

Additional observations from a re-analysis of the deposited data

Results flagged for a closer look

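Of 165 genes named in the text, 16 had 1 derivative whose value stood far from the other 5 (gap to the nearest over the whole range, on the log2 scale, above Dixon's 95% critical value), and chance alone flags about 5% of such groups. Among genes that fell, LCC1 was the highest derivative for QPRT at 11.5 normalized counts, PPP2R2C at 14.5, WNT5B at 3.02 and COL22A1 at 1.21, all still far below parental cells. LCC4 was the lowest for BMP6 at 4.17 and the highest for HES4 at 165 and, among genes that rose, for CLDN4 at 3445. LCC6 was set apart for TRAF3 at 1958, MYC at 14411 and the uncalled TGFB2 at 251. LCC5 was set apart for NFKBIE at 148 and FSTL3 at 909, LCC2 for FGF1 at 87.1 and RYK at 3970.2, and LCC3 for ENTPD3 at 923 and GCLM at 3837. For each called gene among these, as for every called gene, the derivative set apart lay on the same side of both parental libraries as the other 5.

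Of the 144 named genes that were called in MLM, 60 had an effect that differed between media (limma interaction, adjusted p under 0.05). The share was 11.0% of all tested genes and 32.5% of those called in MLM. Called genes were chosen by MLM libraries that enter this test, and some named genes by the test itself. Values are the log2 difference (LCC minus parental) in MLM minus that in MRM. For genes that fell in MLM, the most negative were ELOVL2 (-8.83, ADAM23 (-8.48, QPRT (-8.43, NDN (-7.99, BMP7 (-7.81, FGF13 (-7.26, SEMA3C (-7.16, PLCE1 (-6.71, WNT5B (-6.34, BCL2A1 (-6.00, GSTM3 (-5.71, COL22A1 (-5.61, PPP2R2C (-5.42, NNMT (-5.33, FAT4 (-4.63, FGF2 (-4.33, FAM101B (-4.26, BMP6 (-4.13, C15orf48 (-4.05 and FLT4 (-4.04. A further group lay between -4 and -1.5 on this scale, made up of NAT8L (-3.85, HES7 (-3.59, SOX7 (-2.96, BIRC3 (-2.91, CLDN1 (-2.85, ARC (-2.63, HES4 (-2.16, SYP (-2.04, LAMA2 (-1.96, HMOX1 (-1.90, N4BP3 (-1.90, HOXB2 (-1.78, FSTL3 (-1.70, KREMEN2 (-1.59, HES6 (-1.53 and IL12A (-1.50. The others that fell were MAP3K14 (-1.42, ADAM9 (-1.18, BIRC2 (-0.99, GCLM (-0.91, IFNAR2 (-0.50 and USP24 (-0.28. For genes that rose in MLM, the effect was larger in MLM for ENPP3 (2.84, CCDC69 (2.2), SEMA3F (2.18, SPARC (2.11, AMOTL1 (2.06, CTGF (1.30, TNFAIP2 (1.18, TGM2 (1.02, PLXNA1 (0.99, MMP17 (0.94, TIMP2 (0.92, RBL2 (0.89, CDKN2D (0.69 and ATG3 (0.28. It was smaller in MLM than in MRM for TLE3 (-0.61, SEMA3A (-1.05, PLAT (-1.07 and ENTPD3 (-1.95. The parental MRM and MLM values of the main examples are given in the report.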

How the results depend on the processing

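Counts that changed by over 1.5 times did so with DESeq2 on recovered reads (1249 higher and 1662 lower, against 616 and 1095), and when 1 library was left out. Without 1 library the genes called higher ranged from 4 to 1009 and those called lower from 123 to 1428: without LCC2 they were 1009 and 1428, without LCC5 321 and 769, without parental library 1 9 and 142, and without parental library 2 4 and 123. A lone parental library leaves the test no spread of its own group, and the part of this in the drop was not tested. With equal library totals 465 rose and 1579 fell, 22.7% of calls being higher against 36.0%. The other settings gave 527 to 637 higher and 907 to 1292 lower: edgeR (527 and 1292), 1 fit over both media, other pseudocounts, filters and size factors, and values centred on 20 neighbouring genes (551 and 907), of which 305 and 677 were also called without centring. With the library name as a replicate block, 3428 genes differed between media against 1370; the LCC pairing is that of the derivatives, while the parental pairs share only a number. Without 1 parental library, 446, 451, 478 or 661 genes differed. Of the 165 named genes 4 changed sign, all when centred on their neighbours: IKBKB (0.33), ADAM9 (0.075), PCYT1A (-0.014) and ATG3 (-0.032). Of the 144 called, 116 stayed called when so centred, 115 without LCC5, 122 without LCC1, 24 without parental library 1, 22 without parental library 2, and 129 to 144 in each other setting. By tool, the calls lost were MARCH4, ADAM23 and SLC7A2 with DESeq2 and IL6, FZD2, SLC7A2 and PKP2 with edgeR. DESeq2 also called HLA.A, ULBP1 and CDKN1B. In 1 limma fit of all 4 H2087 groups 11 calls were lost, those of TNFAIP2, SEMA3E, TLE3, VEGFA, FGFR2, MYC, ASNS and SERPIND1 (values given with each gene), NNMT (adjusted p = 0.0613), PKP2 (0.0552) and RRM2B (0.167). CCL2 (0.0596) and FGFR2 (0.0562) lost theirs with a pseudocount of 0.5, FZD2 (0.0583), SPARC (0.0503) and PKP2 (0.0540) with no filter, and FZD2 (0.0657) with equal totals (limma adjusted p). The cause was not tested. Depth limits genes near 0 most: at 3 reads or fewer over all derivatives, as for WT1 and COL22A1, the size of the fall is known only within its counting interval.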

Other observations

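Across all tested genes 13.7% were called. Of 23 genes of NAD synthesis and use 1 rose and 3 fell (17.4%), QPRT among them. NNMT, which methylates nicotinamide, had 1.02, 3.22 and 9.61 in the LCC libraries (lowest, median and highest), against 30.7 and 39.1 in the parental ones (-3.03 ± 0.63, adjusted p = 0.0174, limma). Of 45 genes of fatty acid synthesis, elongation, desaturation and use 1 rose and 4 fell (11.1%), and of 29 of cholesterol synthesis 2 rose and 1 fell (10.3%). None of 19 glycolysis genes was called. Of 55 genes of potassium, sodium and calcium channels and of glutamate and GABA receptors 1 rose and 4 fell (9.09%), all 5 among the 25 potassium channels. KCNJ11, a subunit of the ATP-sensitive potassium channel, had 1.92, 4.50 and 11.3 in the derivatives and 35.6 and 29.7 in parental cells (-2.54 ± 0.64), and KCNG1 fell too (-2.49 ± 0.56). None of 21 sodium and calcium channels was called.

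Of 27 serpins and genes of plasminogen activation 3 rose and 1 fell (14.8%). The share of all tested genes, 13.7%, stands beside this and the other counts of this paragraph. F2RL2, a thrombin receptor, had 0.595, 2.97 and 10.3 in the LCC libraries, against 69.5 and 88.0 in the parental ones (-4.45 ± 0.78), while the serpin SERPIND1, an inhibitor of thrombin, rose (1.63 ± 0.42). The call of SERPIND1 was lost with a pseudocount of 10 (adjusted p = 0.0501) and in 1 limma fit of all 4 H2087 groups (adjusted p = 0.129). Of 63 cadherins, claudins and desmosome genes 3 rose and 4 fell (11.1%), among them the large cadherin FAT4 (-2.23 ± 0.34) and the desmosome protein PKP2 (-1.53 ± 0.42). Of 29 HOX genes 0 rose and 3 fell (10.3%), HOXB2 at -1.29 ± 0.28. The drug transporter ABCG2 fell in both media (-1.57 in MLM and -0.99 in MRM), and the synaptic vesicle gene SYP fell in MLM (-1.77 ± 0.28). Of 27 death receptor and BCL2 family genes only BCL2A1 was called, and of 22 p53 targets 0 rose and 1, RRM2B, fell (-0.34 ± 0.08). None of the genes first named here with values kept its call without parental library 1 or without parental library 2, and PKP2 (-1.53) and RRM2B (-0.15) were not called when centred on their neighbours. Leaving out a derivative ended calls for KCNJ11 without LCC5 (-2.42), SERPIND1 without LCC1, LCC5 or LCC6 (1.69, 1.58 and 1.60), PKP2 without LCC1, LCC3, LCC5 or LCC6 (-1.47, -1.38, -1.44 and -1.49), ABCG2 without LCC1 or LCC5 (-1.57 and -1.52) and RRM2B without LCC1, LCC3 or LCC5 (-0.33, -0.33 and -0.34).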
